A study of Homo sapiens with 4 samples.

Results

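The mRNAs of 8 transcription factors were examined in a crosslinking experiment on the RNA-binding protein PDCD4: the JUN family (JUN, JUNB and JUND), the FOS family (FOS, FOSL1 and FOSL2), ATF3 and MYC. They were chosen by symbol, because PDCD4 is known as an inhibitor of AP-1 activity. Every listed crosslink site whose gene label held 1 of these symbols was taken, whatever its score, which gave 8 of the 14416 genes named in the lists. All 8 genes had at least 1 site in the PDCD4 list and 6 of them had 1 in the IgG list, with no site listed for JUND and FOS there.

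In iCLIP, UV light links protein to RNA, the protein is immunoprecipitated, and the ends of the cDNAs mark the crosslinked nucleotides. Lysates of wild-type MCF10A cells, an established and non-transformed line of breast epithelial cells, were immunoprecipitated with PDCD4 antibody (2 replicates) or with isotype control IgG (2 replicates). All cells grew in the same medium, which held EGF at 20 ng/ml, insulin at 10 µg/ml, hydrocortisone at 500 ng/ml, cholera toxin at 10 ng/ml and 5% horse serum, so that both groups share a growth factor that acts on these genes. The deposited data are 1 list of sites per antibody with its replicates pooled, so there is no spread between replicates and no test between the lists was possible.

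AP-1 is a family of dimers of basic leucine zipper proteins. A JUN protein pairs with a FOS or ATF protein or with another JUN, and the dimer binds DNA and switches on genes of growth, migration and stress. MYC, a basic helix-loop-helix leucine zipper factor, pairs with MAX and acts on a large part of all expressed genes. FOS, JUN, JUNB, ATF3 and MYC are immediate early genes: growth factors induce them within minutes, and their mRNAs are short-lived, in part through AU-rich elements in the 3′UTR. PDCD4 is known as a tumour suppressor that binds the RNA helicase eIF4A and holds back translation and AP-1 activity.

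The sequences around single sites are shown first, since for 5 of the genes the data consist of a few sites only. Each line holds 25 nt of the RNA strand in DNA letters, read from the GRCh38 reference genome, with the crosslinked nucleotide in capitals. For JUN the coding PDCD4 site is given, for JUNB the nearest pair of PDCD4 and IgG sites, for JUND and FOS the only site, for FOSL1 both coding sites, for FOSL2 the site with the highest score and for ATF3 the only site of each list.
JUN coding sequence, PDCD4, chr1:58782817-58782841, minus strand: agcgcctgataaTccagtccagcaa
JUNB 3′UTR, PDCD4, chr19:12793063-12793087, plus strand: tatttgtgtattTaacagggagggg
JUNB 3′UTR, IgG, chr19:12793006-12793030, plus strand: tttttttgtatgTtttttttctgct
JUND coding sequence, PDCD4, chr19:18280817-18280841, minus strand: tcgctgccgaacCtgtgcccttccc
FOS 3′UTR, PDCD4, chr14:75282046-75282070, plus strand: aaaacgttttatTgtgtttttaatt
FOSL1 coding sequence, PDCD4, chr11:65893156-65893180, minus strand: cccggaaggagcCaaggagggggac
FOSL1 coding sequence, PDCD4, chr11:65893036-65893060, minus strand: actgcacaccccCacactcatgacc
FOSL2 intron 1, PDCD4, chr2:28396702-28396726, plus strand: tgtgaaaataaaTcaagggcagtat
ATF3 intron, PDCD4, chr1:212590360-212590384, plus strand: ttgtgatttcctTttaggtatattg
ATF3 intron, IgG, chr1:212590359-212590383, plus strand: attgtgatttccTtttaggtatatt
No single run of bases is common to these sites. The FOS stretch holds 14 T, and of the FOSL1 coding stretches 1 has no T and the other has 13 C. No sequence is printed for MYC.

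The PDCD4 list held 158922 sites with 409308 cDNAs and the IgG list 111361 sites with 276139 cDNAs, with a median of 2 cDNAs per site in both. To compare the lists, the cDNAs of a gene were summed and divided by the total of the list, and the log2 ratio of the 2 shares was taken after adding 1 cDNA to each sum. Brackets hold 95% intervals, which cover counting error only and were computed without the added cDNA. Basal and other epithelial markers fit the label of the cells: 12 of 12 basal markers and 5 of 6 epithelial ones were listed, KRT14 with 3 cDNAs and KRT19 with none, whereas no blood, endothelial or fibroblast marker (0 of 8) was listed and the luminal markers were limited to 2 cDNAs of ESR1. A high sum and a high level of the mRNA in the cells cannot be told apart here.

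MYC had a higher log2 ratio over all listed sites than any of the AP-1 genes with sites in both lists. The PDCD4 list held 39 sites with 106 cDNAs in MYC, or 2.59 per 10000 cDNAs of the list, and the IgG list 4 sites with 8 cDNAs, or 0.290 per 10000. The log2 ratio was 3.0 [2.13, 4.41], which is 8.94-fold [4.38, 21.2] without the added cDNA. Among the 3972 genes with at least 50 cDNAs over both lists it ranked 42nd from the top, and 1.06% of these genes reached the ratio of MYC. When exonic sites alone were counted, the ratio was lower, at 1.97 [1.07, 3.39] from 77 and 8 cDNAs, with a rank of 252 of 3930 genes. With groups of sites no more than 3 nt apart that held at least 4 cDNAs, an alternative chosen after seeing the data, the rank was 383 of 3904 genes, and with scores above 5 it was 107 of 1105. The exonic count leaves out 29 intronic PDCD4 cDNAs, with no intronic IgG site listed, and divides by the exonic totals of 213213 and 96521 cDNAs.

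FOSL2 had nearly as many PDCD4 cDNAs as MYC, but also as many in the control. FOSL2 encodes FRA-2, a FOS-related protein that pairs with JUN proteins and lacks the strong activation domain of FOS. It had 33 sites with 91 cDNAs in the PDCD4 list (2.22 per 10000) and 24 sites with 68 cDNAs in the IgG list (2.46 per 10000), a log2 ratio of -0.15 [-0.62, 0.33]. The interval held 0, and an excess of PDCD4 beyond 1.25-fold lay outside it. MYC and FOSL2 together accounted for 82.1% of all PDCD4 cDNAs of the 8 genes.

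**Figure D1:**
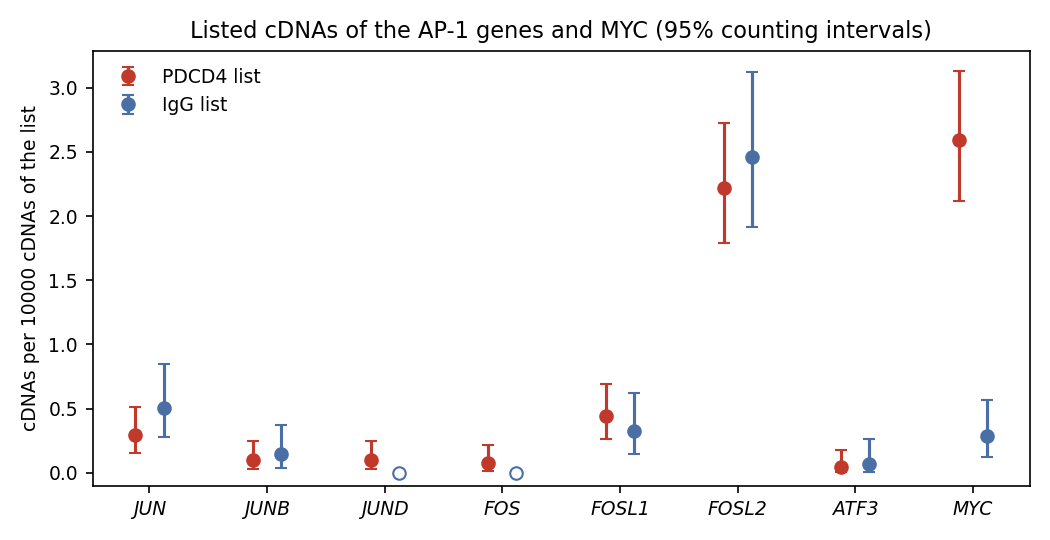
cDNAs of each gene per 10000 cDNAs of the list (vertical axis) in the PDCD4 list (red) and the IgG list (blue), with 95% exact Poisson intervals for counting error. Open circles mark genes with no site in the IgG list, which have no interval. MYC is at 2.59 with PDCD4 and at 0.290 with IgG, while FOSL2 is above 2 in both and the other 6 genes are at or below about 0.5.

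FOSL1 encodes FRA-1, the FOS-family member most often raised in invasive epithelial cells. It had 6 sites with 18 cDNAs in the PDCD4 list and 3 sites with 9 cDNAs in the IgG list, a log2 ratio of 0.36 [-0.80, 1.77]. With groups of at least 4 cDNAs alone, an alternative chosen after seeing the data, FOSL1 had 12 cDNAs against none. Each of its 3 IgG sites held 3 cDNAs and fell below that threshold, so no excess can be read from this count. JUN, the founding AP-1 subunit and a target of JNK kinases, had 4 sites with 12 cDNAs against 5 sites with 14 cDNAs, at -0.77 [-2.03, 0.43]. Over all listed sites, neither gene differed between the lists beyond counting error. All JUN sites are exonic, and against the exonic totals its ratio was -1.35 [-2.61, -0.15], an interval that left out 0. With MYC and FOSL2 these were the only genes of the 8 with at least 10 cDNAs over both lists.

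The other 4 genes had 1 PDCD4 site each. JUNB, a subunit that can restrain JUN, had 1 site with 4 cDNAs in the PDCD4 list and 2 adjacent sites with 4 cDNAs in the IgG list, a log2 ratio of -0.57 [-2.99, 1.86]. JUND, the JUN-family member expressed most evenly in resting cells, had 4 cDNAs at 1 PDCD4 site. FOS, the immediate early partner of JUN, had 3 cDNAs at 1 PDCD4 site. For JUND and FOS no fold is given, since no IgG site was listed and the lists leave out positions that missed the filter of the authors. ATF3, a stress-induced factor that can repress its targets, had 2 cDNAs at 1 site in each list. These sums are too small to place the genes on either side of the control.

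In order of the log2 ratio, the 6 genes listed in both files were MYC, FOSL1, FOSL2, JUNB with ATF3, and JUN. The interval of MYC lay above that of FOSL1, and every other pair of neighbours overlapped. Of the 4 genes with at least 10 cDNAs, 2 (MYC and FOSL1) had a ratio above 0, where 46.8% of the 9594 genes with as many cDNAs did. Over all 8 genes 4 were above 0 (MYC, FOSL1 and, with no IgG site listed, JUND and FOS), where 48.3% of the 14416 genes listed were. Past 2-fold, MYC was above 1 (18.8% of all such genes) and none of the 4 was below -1 (18.1%). The median ratio was 0.10 over all 8 genes, with JUND and FOS at their values after the added cDNA, and -0.36 over the 6 genes listed in both, beside -0.08 over the 9594 genes. Without MYC the sums of the other 7 genes were 134 and 97 cDNAs, a log2 ratio of -0.11 [-0.49, 0.29], and with MYC they were 240 and 105 cDNAs, at 0.62 [0.29, 0.97]. The JUN family summed to 20 and 18 cDNAs, at -0.42 [-1.41, 0.59], and the FOS family to 112 and 77, at -0.03 [-0.46, 0.41]. The excess in the sum of the 8 genes thus rested on MYC.

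**Figure D2:**
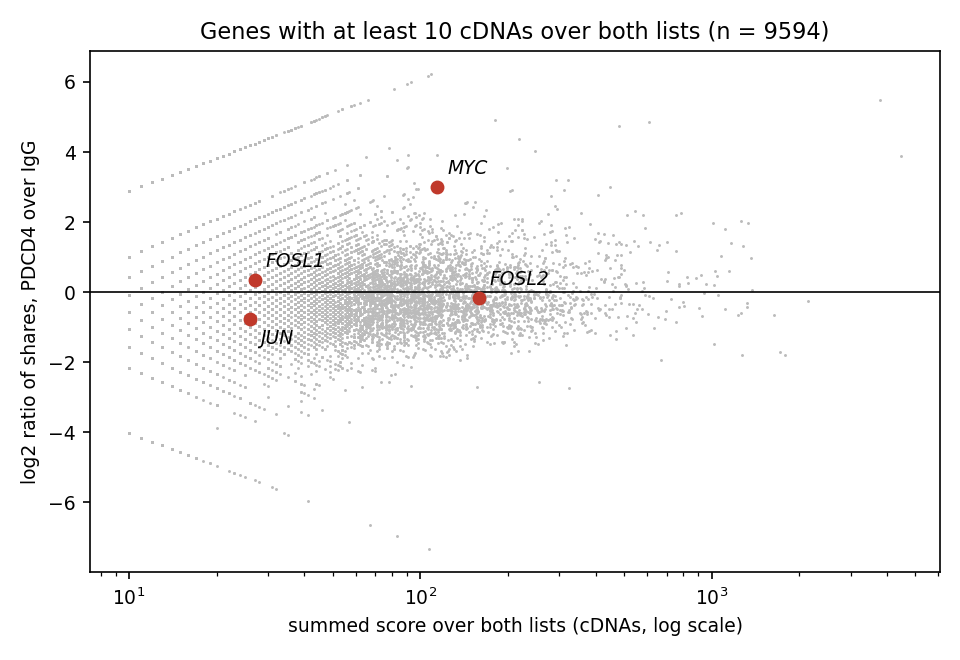
Log2 ratio of the share of cDNAs, PDCD4 list over IgG list (vertical axis), against the cDNAs of the gene summed over both lists (horizontal axis, log scale), for the 9594 genes with at least 10 cDNAs (grey) and the 4 genes of the set among them (red). MYC lies at 3.0 near the upper edge of the genes with similar sums, FOSL1 and FOSL2 lie near 0, and JUN lies at -0.77. Diagonal lines of points are genes with the same small count in the other list.

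MYC is a gene of 3 exons on the plus strand of chromosome 8 (127735434 to 127742951), whose reference transcript has 3721 nt. Its PDCD4 sites were spread over the leader, both large exons and both introns. Exon 1 of the reference transcript held 4 sites with 8 cDNAs, all in the 5′UTR, and exon 2 held 3 sites with 12 cDNAs in coding sequence. Exon 3 held 17 sites with 42 cDNAs, of which 5 sites with 13 cDNAs were in coding sequence and 12 sites with 29 cDNAs in the 3′UTR. Intron 1 held 4 sites with 12 cDNAs and intron 2 held 9 sites with 21 cDNAs. The last 2 sites lay before the start of the reference transcript, within longer MYC transcripts. They were 132 nt and 4 nt before that start and had 7 and 4 cDNAs, and the first of them was the highest MYC site.

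The sites gathered in parts of these regions. The 9 sites of intron 2 lay between 259 and 432 nt before the 3′ splice site, and none was listed closer to it. In the 3′UTR, 1996 nt long in the reference transcript, all 12 sites lay between 52 and 406 nt after the stop codon, with none listed beyond. Where the MYC mRNA ends in these cells was not tested, so a preference for the first part of the 3′UTR cannot be read from this. Sites no more than 3 nt apart formed 21 groups of 1 to 13 cDNAs with a median of 4, and the group with 13 cDNAs was a run of 6 sites 189 to 194 nt after the stop codon. In exon 2, the site with 6 cDNAs lay at position 415 of the coding sequence, with a site of 2 cDNAs beside it. MYC was the only gene of the 8 with more than 1 site above a score of 5, having 2 of them with 7 and 6 cDNAs, and FOSL2 had 1 with 6. Such a PDCD4 site was found in 7.51% of all genes listed, and such an IgG site in 4.18% of them and in none of the 8.

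The 4 IgG sites of MYC fell into 2 groups of 4 cDNAs, at positions 133 and 136 of the coding sequence in exon 2 and 327 and 328 nt after the stop codon in exon 3. Neither group coincided with a PDCD4 site, and the nearest distance between the lists was 73 nt. Per the methods, sites also found with IgG were removed from the PDCD4 data, and only 721 positions of any gene are in both lists. The lack of a shared position in MYC therefore says nothing of separate binding. Both IgG groups lay within the exons that held most of the exonic PDCD4 sites.

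**Figure D3:**
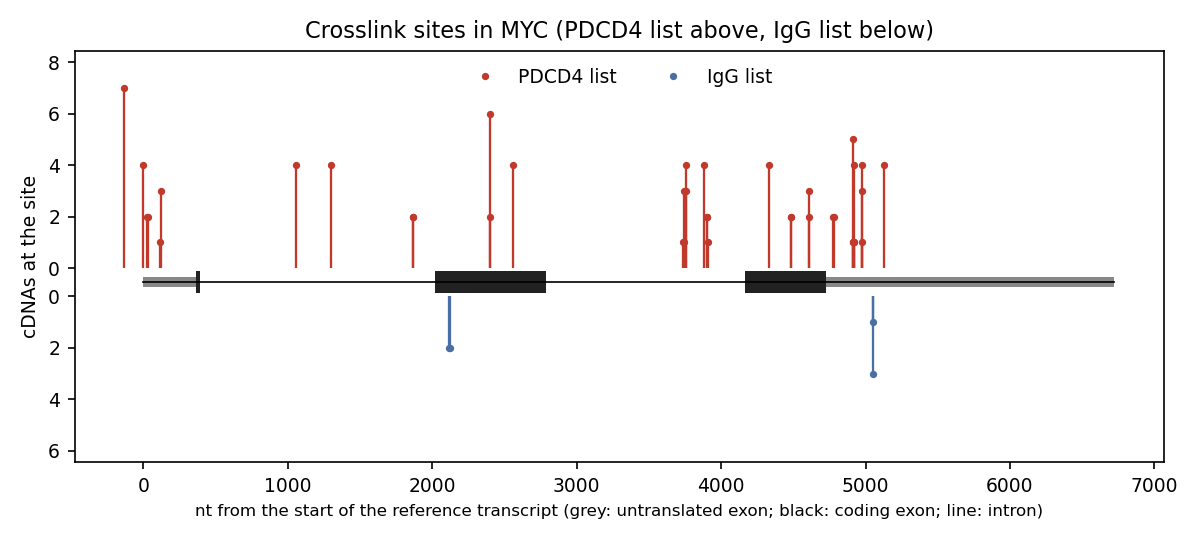
Crosslink sites in MYC along the reference transcript, in nt from its start with introns included (horizontal axis), with the cDNAs at each site (vertical axis) upwards for the PDCD4 list in red and downwards for the IgG list in blue. Grey boxes are untranslated exon, black boxes coding exon and the line intron. The 39 PDCD4 sites reach from before the start to the first part of the 3′UTR, and the 4 IgG sites form 2 groups.

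Per length of region, MYC had 22.0 PDCD4 cDNAs per 1000 nt of 5′UTR, 18.4 of coding sequence, 14.5 of 3′UTR and 11 of intron. The IgG list gave 2.94 per 1000 nt of coding sequence and 2.0 of 3′UTR. Per 10000 cDNAs of each list, PDCD4 and IgG were at 0.448 and 0.106 in coding sequence and at 0.355 and 0.073 in the 3′UTR. Over the reference lengths, the PDCD4 density thus differed by less between the regions of MYC than between the lists. The 3′UTR density depends on the reference length of 1996 nt, and would be higher over a shorter 3′UTR. Relative to the total of the same region in each list, with coding sequence taken first over all transcripts, the log2 ratio of MYC was 1.5 [0.33, 3.72] in coding sequence from 44 and 4 cDNAs and 1.80 [0.56, 4.04] in the 3′UTR from 29 and 4 cDNAs. Introns had 29 PDCD4 cDNAs and no listed IgG site.

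FOSL2 lies on the plus strand of chromosome 2 (28392448 to 28417317) and its reference transcript has 4 exons and 6713 nt. Here the sites of both lists were led by the 3′UTR of 4872 nt. It held 26 of 33 PDCD4 sites (78.8%, 95% Wilson interval 62.2% to 89.3%) with 67 cDNAs, and 12 of 24 IgG sites (50%, 31.4% to 68.6%) with 34 cDNAs. The 2 intervals overlapped. Coding sequence held no PDCD4 site and 3 IgG sites with 6 cDNAs, the 5′UTR 1 and 3 sites, and the introns 6 sites in each list.

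Over the reference lengths, the density in the FOSL2 3′UTR was 13.8 cDNAs per 1000 nt with PDCD4, close to the 14.5 of the MYC 3′UTR, and 6.98 with IgG. Relative to all 3′UTR cDNAs of each list, the log2 ratio was 0.17 [-0.43, 0.83], so that the 3′UTR of FOSL2 did not differ from the control beyond counting error. The same ratio for coding sequence, from 0 and 6 cDNAs, was -4.48 with an upper bound of -1.91. Those of the 5′UTR and the introns had intervals that held 0. Sites of the 3′UTR lay from 267 to 4081 nt after the stop codon for PDCD4 and from 72 to 4092 nt for IgG, with none listed in its last stretch. They formed 20 PDCD4 groups of 3 to 6 cDNAs and 12 IgG groups of 2 to 5 cDNAs. Within 30 nt of a 3′UTR site of the other list lay 9 PDCD4 sites and 6 IgG sites, the nearest pair being 11 nt apart. The smallest sum of a group thus differed between the lists, and what set it was not tested.

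**Figure D4:**
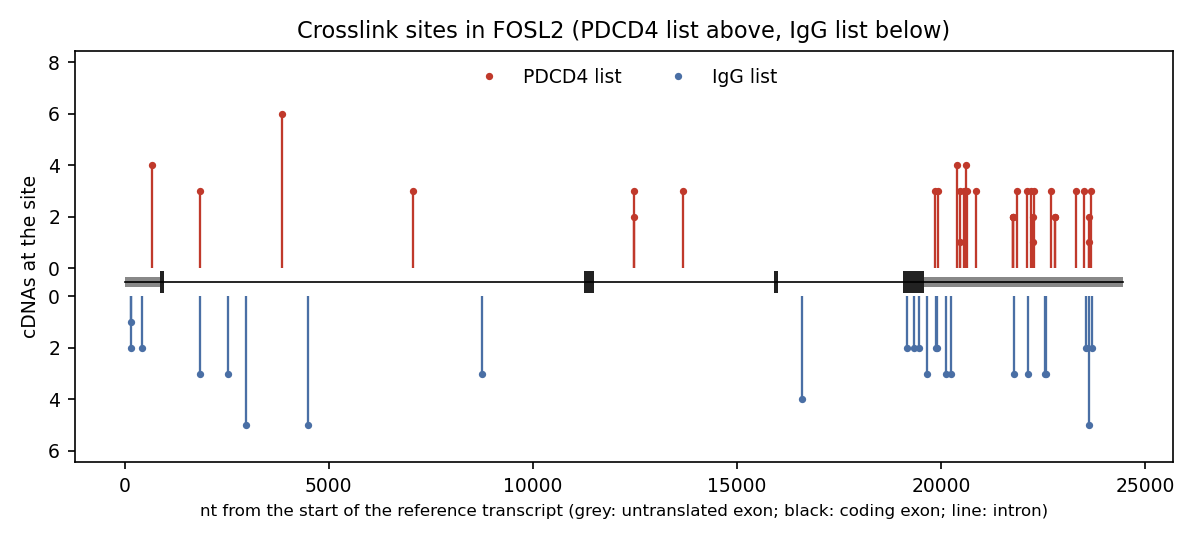
Crosslink sites in FOSL2 along the reference transcript, in nt from its start with introns included (horizontal axis), with the cDNAs at each site (vertical axis) upwards for the PDCD4 list in red and downwards for the IgG list in blue. Grey boxes are untranslated exon, black boxes coding exon and the line intron. Both lists are densest in the long 3′UTR, where 26 PDCD4 sites and 12 IgG sites lie, and the highest PDCD4 site, with 6 cDNAs, is in intron 1.

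JUN, JUNB and JUND have no intron, so all of their sites were exonic. In JUN (chromosome 1, minus strand, 58776845 to 58784048), the PDCD4 sites were 2 adjacent ones in the 5′UTR with 2 cDNAs each, 1 in coding sequence with 4 and 1 in the 3′UTR with 4. The 5′UTR and coding PDCD4 sites lay at least 739 nt from any IgG site, whereas the 3′UTR PDCD4 site lay 19 nt from an IgG group of 7 cDNAs. For IgG, 4 of the 5 JUN sites were in the 3′UTR with 10 cDNAs, against 4 PDCD4 cDNAs there, a log2 ratio of region shares of -1.93 [-4.24, -0.32].

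The JUNB site (chromosome 19, plus strand, 12791486 to 12793315) lay 263 nt after the stop codon, and the IgG pair lay 57 nt before it in the T-rich stretch shown above. In JUND (chromosome 19, minus strand, 18279694 to 18281622), the single site lay at position 656 of the coding sequence. The FOS site (chromosome 14, plus strand, 75278826 to 75282230) lay in the last exon, 637 nt after the stop codon in a 3′UTR of 809 nt.

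FOSL1 (chromosome 11, minus strand, 65892049 to 65900573) had 2 coding sites with 4 cDNAs each and 2 3′UTR sites with 3 cDNAs together, all in exon 4, and 1 site in each of introns 1 and 2. Its 3 IgG sites, of 3 cDNAs each, lay in exon 2 and in introns 1 and 2. No IgG site was listed in exon 4, which held 11 of the 18 PDCD4 cDNAs. The intron 1 sites of both lists lay 38 nt apart.

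ATF3 (chromosome 1, plus strand, 212565334 to 212620777) had sites of both lists at adjacent nucleotides. They lay outside the reference transcript, in an intron that 2 of 10 annotated transcripts hold, 24646 nt before the next annotated exon for the PDCD4 site. No exon of ATF3 held a site in either list. The 30 nt after the site of each list also occur in a transcript of 1 other gene, so the assignment to ATF3 is not certain.

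Over the 8 genes, 43 of 86 PDCD4 sites (50%, 39.7% to 60.3%) lay in 3′UTRs, 18 (20.9%, 13.7% to 30.7%) in coding sequence, 5 in 5′UTRs and 20 (23.3%, 15.6% to 33.2%) in introns, with coding sequence taken first over all transcripts. The 39 IgG sites were spread alike, with 20 (51.3%) in 3′UTRs, 7 (17.9%) in coding sequence, 3 in 5′UTRs and 9 (23.1%) in introns. The lists as a whole had 21.1% (PDCD4) and 17.6% (IgG) of their sites in 3′UTRs and 49.6% and 66.0% in introns. Over the 8 genes together, 3′UTR sites were thus more frequent and intronic sites less frequent than in either list. The lengths of the regions were not corrected for. FOSL2 alone held 26 of the 43 PDCD4 and 12 of the 20 IgG sites in 3′UTRs. In MYC, 12 of 39 PDCD4 sites (30.8%, 18.6% to 46.4%) lay there, an interval that held the 21.1% of the list. The coding share was close to the 20.9% of the PDCD4 list and came mostly from MYC: without it, 4 of 47 sites (8.51%, 3.36% to 19.9%) were coding. Of the 14 coding MYC sites so counted, 6 lay in or before exon 1 of the reference transcript, where other transcripts are coding.

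**Figure D5:**
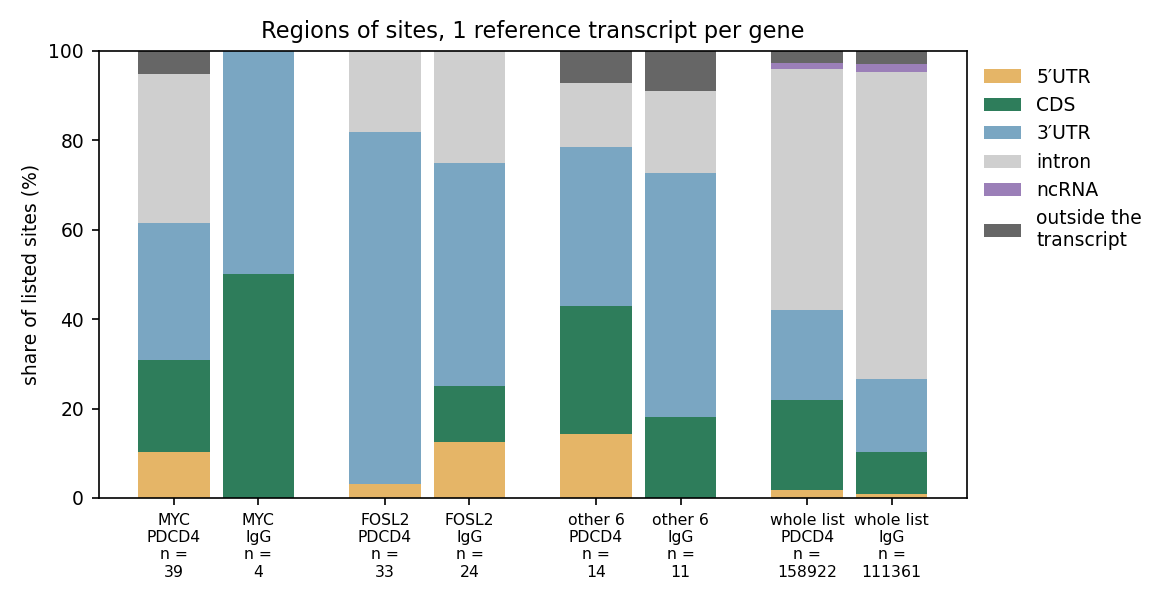
Share of listed sites in each region (vertical axis, percent), assigned to 1 reference transcript per gene, for MYC, FOSL2, the other 6 genes and each whole list, with the number of sites below each bar. The MYC sites of the PDCD4 list fall on all regions, 26 of 33 FOSL2 sites are in the 3′UTR, and more than 50% of each whole list is intronic. The IgG bar of MYC rests on 4 sites.

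AU-rich elements were counted as the letters ATTTA on the transcribed strand of the 3′UTR of the reference transcript, overlaps included. All 8 genes held at least 1, as 66.2% of 19936 annotated 3′UTRs of any length did: MYC 6, FOS 5, FOSL2 9, JUN and ATF3 3 each, JUNB 2, and JUND and FOSL1 1 each. The JUNB and FOS sites lay within 10 nt of a match, as did 3 of 12 MYC sites and 6 of 26 FOSL2 sites in the 3′UTR, but not the JUN site or the 2 FOSL1 sites there. Among IgG sites of the 3′UTRs, 1 of 12 in FOSL2 was that close and none in MYC, JUN or JUNB. Over the 3′UTR sites of all genes, 6.51% of 31250 PDCD4 sites and 7.04% of 18020 IgG sites were that close. The number of matches per 3′UTR was not corrected for and neighbouring sites were counted singly, so no preference for ATTTA can be read from this. The longer TTATTTA, held by 28.7% of 3′UTRs, occurred once each in FOS, FOSL2, ATF3 and MYC, and no site of either list was within 10 nt of it. A match describes the letters only.

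The crosslinked nucleotide was T at 39 of 86 PDCD4 sites of the 8 genes (45.3%, 35.3% to 55.8%) and at 15 of 39 IgG sites (38.5%, 24.9% to 54.1%), beside 46.7% and 51.6% in the whole lists. In MYC it was T at 19 of 39 PDCD4 sites (48.7%, 33.9% to 63.8%). The sites of these genes thus did not differ in this base from the PDCD4 list beyond counting error.

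Per 1000 nt of the reference mRNA, the PDCD4 cDNAs were 16.7 in MYC, 10.6 in FOSL2, 6.46 in FOSL1, 3.68 in JUN, 2.19 in JUNB, 2.07 in JUND, 1.43 in FOS and 0 in ATF3. In the IgG list FOSL2 led with 6.70 per 1000 nt, before JUN with 4.30, JUNB with 2.19, MYC with 2.15 and FOSL1 with 1.76. MYC and FOSL2 thus still led the PDCD4 list once length was taken into account, and MYC came behind FOSL2, JUN and JUNB in the control. The GC content of the mRNA was lowest in MYC, at 48.8%, and highest in JUND and JUNB, at 69.9% and 64.9%, and its part in the result was not tested.

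Sequence shared with transcripts of other genes touched few sites, though these included the only ATF3 site of each list. Genes annotated on the opposite strand overlapped more sites. The 30 nt after the site were found in a transcript of another gene for 3 of 86 PDCD4 sites (1 each in MYC, FOSL1 and ATF3) and for 1 of 39 IgG sites (in ATF3). The FOSL1 site was that of intron 2, matched in 5 other genes. The antisense gene CASC11 overlaps 15 of the MYC sites, FOSL2-AS1 overlaps 4 FOSL2 sites and HOOK2 overlaps all 3 JUNB sites, each on the opposite strand. Since iCLIP keeps the strand, these sites were listed for the strand of the factor.

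The wider AP-1 family had ratios on both sides of 0. Of 18 other basic leucine zipper genes, 15 were listed and 12 had at least 10 cDNAs. Of these, 5 were above 0 (46.8% of all genes with as many cDNAs), none above 1 (18.8%) and 2 below -1 (18.1%). The median was -0.14 (-0.81 with exonic sites alone), beside -0.08 over the 9594 genes. The 3 largest sums were those of NFE2L2, ATF6 and NFE2L1. NFE2L2, the main factor of the oxidative stress response, had 106 and 69 cDNAs (0.04 [-0.40, 0.51]), and ATF6, a sensor of stress in the endoplasmic reticulum, had 67 and 62 (-0.46 [-0.98, 0.07]). NFE2L1, which controls proteasome genes, had 81 and 33 (0.70 [0.13, 1.36]). ATF7 had the lowest ratio among those with at least 50 cDNAs, with 21 and 42 cDNAs (-1.53 [-2.40, -0.78]).

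The median over the partners and regulators of MYC was near 0. Among 17 genes of the MYC network, 15 were listed and 13 had at least 10 cDNAs, with a median of -0.07. Of these, 5 were above 0 (46.8% of all genes with as many cDNAs), 3 above 1 (18.8%) and none below -1 (18.1%). MAX, the obligate partner of MYC, had 37 and 23 cDNAs (0.10 [-0.67, 0.94]), the highest ratio among those with at least 50 cDNAs. FBXW7, the subunit of the ubiquitin ligase that marks MYC for degradation, had 50 and 60 (-0.83 [-1.40, -0.27]). TRRAP, a cofactor recruited by MYC, had 126 and 144 (-0.76 [-1.12, -0.41]), MYCBP2 99 and 101 (-0.60 [-1.01, -0.18]) and MLXIP 112 and 79 (-0.07 [-0.49, 0.37]).

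The kinases upstream of AP-1 went both ways. Of 26 genes, 24 were listed and 22 had at least 10 cDNAs, with a median of -0.27. Of these, 10 were above 0 (46.8% of all genes with as many cDNAs), 3 above 1 (18.8%) and 4 below -1 (18.1%). MAP2K7, which activates JNK, had 78 and 9 cDNAs and a ratio of 2.41 [1.55, 3.73], whereas MAPK8, which encodes JNK1, had 26 and 51 and a ratio of -1.51 [-2.28, -0.83]. MAP2K1, or MEK1, was at 0.00 [-0.43, 0.46] with 109 and 73 cDNAs. MAP4K4 had the largest sum, 289 and 177 cDNAs, at 0.14 [-0.14, 0.42].

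Among 27 other immediate early genes, 23 were listed and 16 had at least 10 cDNAs, with a median of 0.34. Of these, 9 were above 0 (46.8% of all genes with as many cDNAs), 6 above 1 (18.8%) and 3 below -1 (18.1%). CCN1, a secreted matrix protein induced by growth factors, came nearest to MYC with 80 and 7 cDNAs, at 2.77 [1.84, 4.31]. ZFP36L1, which binds AU-rich elements and speeds the decay of their mRNAs, had 145 and 76 cDNAs (0.36 [-0.05, 0.78]), KLF6 had 53 and 28 (0.33 [-0.33, 1.07]) and KLF5 25 and 38 (-1.15 [-1.96, -0.41]). The median of this list turned to -0.55 when exonic sites alone were counted.

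Genes known as AP-1 targets included some of the largest sums. Of 26 such genes, 15 were listed and 12 had at least 10 cDNAs, with a median of 0.17. Of these, 8 were above 0 (46.8% of all genes with as many cDNAs), 3 above 1 (18.8%) and none below -1 (18.1%). VIM, the intermediate filament protein of mesenchymal and cultured cells, had 597 and 13 cDNAs (4.85 [4.17, 5.87]). ITGB4, an integrin of the basal cell junction, had 439 and 118 (1.32 [1.03, 1.63]), CD44 268 and 112 (0.68 [0.37, 1.02]) and VEGFA 34 and 38 (-0.72 [-1.44, -0.02]).

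Since the JUN genes have no intron, intronless protein-coding genes were set beside them. Of 991 such genes, 149 were listed and 54 had at least 10 cDNAs, with a median of 0.54. Of these, 31 were above 0 (46.8% of all genes with as many cDNAs), 23 above 1 (18.8%) and 13 below -1 (18.1%). The list included RBM15B, at 2.27 [1.24, 3.98] with 49 and 6 cDNAs, and mitochondrial mRNAs, of which MT-CO1 had 191 and 167 cDNAs (-0.38 [-0.68, -0.07]), MT-ND5 62 and 142 (-1.75 [-2.22, -1.32]), MT-CO2 126 and 54 (0.64 [0.18, 1.14]) and MT-ND4 no PDCD4 site against 83 IgG cDNAs. JUN, at -0.77, lay within the spread of these genes. With exonic sites alone their median was 0.03 over 53 genes and JUN was at -1.35. Without the mitochondrial genome their median was 0.69 over 42 genes and JUN was at -0.76.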

How the data were processed

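iCLIP libraries of MCF10A cells (2 PDCD4, 2 IgG) were processed by the authors with iCount on the genome of Ensembl release 88 (GRCh38). Per the methods, sites also found with IgG were removed from the PDCD4 data and replicates merged, yet 721 positions, none in the 8 genes, are in both lists. The deposited lists (1 per antibody) give a raw cDNA count per crosslink site of 1 nt, not normalized, and hold sites past the false discovery rate threshold only. The methods also keep scores above 5, which the lists do not, and test differential binding with DESeq2, which was not repeated here because no count per replicate was used. The version of iCount is not given in the sources used here. The whole lists held 0 columns of other samples.

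Here, cDNAs were summed by gene label, and sites assigned on the same strand to GENCODE release 44, a later annotation of the same build, where a site took the first region it met in any transcript among coding sequence, then 3′UTR, 5′UTR, noncoding exon and intron. The gene identifier was known to it for 99.7% of sites. Distances and densities use 1 reference transcript per gene. Ratios use shares of the list totals with a pseudocount of 1, with exact binomial intervals, and shares have Wilson intervals (95%). Counting intervals treat cDNAs as independent. Wilson intervals treat sites as independent, though neighbouring sites form groups, so they may be too narrow. Neither kind says anything of replicates.

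Genes named are the 8 factors, per wider list the 3 largest sums and the highest and lowest ratio among genes with at least 50 cDNAs, PDCD4, and the 5 genes nearest to MYC in ratio within 1.5-fold of its sum. A gene that this rule names and a sequence are not reported here. The factors and lists were chosen with earlier results of these data known. For ratios 12 alternatives and for regions 4 were run, with other score thresholds, counts of sites or groups, pseudocount, totals and sites. The ratio and its interval were tested on simulated data. Scripts ran in Python 3.11.15 (pandas 2.3.3, numpy 2.4.6, matplotlib 3.10.9, scipy 1.17.1).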

Additional observations from a re-analysis of the deposited data

How the results depend on the processing

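Over 12 alternatives the log2 ratio of MYC stayed above 0, from 1.85 to 3.49, and those of JUN (-1.35 to -0.43) and JUNB (-2.15 to -0.43) stayed below 0 wherever they were listed, though the interval of JUN left out 0 with exonic sites alone. With scores greater than 5 alone, MYC was at 1.85, with a lower bound of -0.35, and FOSL2 at 0.85, both without an IgG site, beside a median of 0.85 over the 1525 genes listed there. Of 2 genes listed, 2 were above 0 (62.1% of all genes), the summed ratio was 2.37, and 66.7% of 3 sites were coding. In the same setting the medians were -4.76 for other AP-1 family genes (1 gene), -5.56 for the MYC network (2 genes), 0.85 for the MAPK route and -0.25 for intronless genes. With exonic sites alone, MYC was at 1.97, the sum at 0.14, other AP-1 family genes at -0.81 and other immediate early genes at -0.55. Without the largest site of each gene, 2 genes of 5 were above 0. In an alternative chosen after seeing the data, which kept groups of neighbouring sites with at least 4 cDNAs, FOSL1 was at 2.63 (12 cDNAs against none), other AP-1 family genes at -1.07 and MYC at 2.49. A second one chosen then counted each group once. The causes were not tested. Apart from the last MYC value these are the 16 values that moved by more than their counting interval, spread or count allowed, against 180 that did not, and no ratio whose interval left out 0 changed sign.

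No paired analysis was possible because each list pools its replicates. Leaving out 1 replicate was not run, the lists being pooled. Thinning the PDCD4 list to the IgG total was planned and not run. With 8 or fewer cDNAs over both lists in 4 of the genes, their ratios are not resolved, and positions that missed the filter have no value.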

Other observations

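Among the 1814 genes with a summed count within 1.5-fold of that of MYC, the 5 nearest to it in log2 ratio were CKAP4 (2.96, 91 and 7 cDNAs), SCAP (2.94, 90 and 7), EME2 (3.12, 89 and 6), CIC (2.79, 81 and 7) and CCN1 (2.77, 80 and 7). CKAP4 is a membrane protein of the endoplasmic reticulum, SCAP escorts the sterol-regulated SREBP factors, EME2 is a partner of the nuclease MUS81 and CIC is a transcriptional repressor controlled by MAPK signalling. The likeness is that of 1 ratio between 2 pooled lists.

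The mRNA of PDCD4 itself was listed with PDCD4 at 11 sites holding 22 cDNAs and with IgG at 6 sites holding 13, a log2 ratio of 0.15 [-0.86, 1.30].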
